A study of Mus musculus with 6 samples.

Results

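The 10 genes described here encode receptors through which hormones, vitamins and local mediators act on bone cells. They were taken by name: Pth1r, Vdr, Esr1, Nr3c1, Ghr, Lepr, Insr, Ptger4, Thra and Rara. All 10 were represented among the 19938 genes measured, each by 1 probe set except Insr, which had 2, and the brighter probe set was used. Expression was measured in 2 groups, and each sample had its own Affymetrix Mouse Gene ST array. The first group was 3 osteosarcoma lines, OS_493H, OS_494H and OS_716H, derived from primary bone tumours of C57Bl6 mice with floxed Rb (fl/fl) and floxed p53 (fl/fl) alleles and Osx-Cre+. Osterix (Sp7) is a transcription factor of the osteoblast lineage, and its promoter drives the Cre recombinase that deletes the floxed alleles. OS_493H came from the hip of a female, OS_494H from the hip of a male and OS_716H from the tibia of a female, with labelled ages of 188, 190 and 226 whose unit is not given. The second group was 3 samples of KUSA4b10 cells (strain C57Bl6), a mouse bone marrow stromal line, kept in ascorbate at 50 ug/ml for 21 days after confluence so that they differentiated into osteoblasts. They are called cultures 1, 2 and 3. The labels give these cells no floxed allele or Cre, and give the lines no ascorbate or days of differentiation. Tumour origin, differentiation and growth state therefore cannot be told apart in any difference below. All 3 cultures are 1 cell line. Their titles carry the marks Ex1, Ex2 and Ex3, which may stand for separate experiments, but the meaning is not given. Whether the cultures were grown independently is thus not stated, and the p-values may rest in part on technical spread.

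Values are RMA-normalised log2 expression, so a difference of 1 unit is a 2-fold change. Levels of different genes are not compared, because each probe set has its own brightness. Array medians ran from 7.45 to 7.58. Culture 2 stood apart from the other cultures, with 150 genes over 1 log2 unit from culture 1 and 186 from culture 3, against 3 genes between cultures 1 and 3. Rb1, the targeted tumour suppressor, was 9.26 to 9.87 in the lines, against 10.66 to 10.68 in the cultures. The array labelled OS_716H, a female, carried the Y-linked transcript Eif2s3y at 10.11 and Xist at 5.50, near the values of the male line OS_494H (9.96 and 5.31) and unlike OS_493H (4.08 and 12.62). In the cultures Eif2s3y was 4.10 to 4.14 and Xist 5.57 to 5.79, so both were low there. The part of sex in the receptor values was not tested. Sparc, an abundant osteoblast matrix protein, averaged 13.97 in the lines, against 14.02 in the cultures, and Col1a1 13.25 and 13.31, while bone sialoprotein (Ibsp) averaged 7.07 and 13.23.

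The receptors belong to several signalling classes. Pth1r and Ptger4 are G protein-coupled receptors at the cell surface that raise cyclic AMP in osteoblasts, Ghr and Lepr are cytokine-type receptors that signal through the kinase JAK2, and Insr is a receptor tyrosine kinase. Vdr, Esr1, Nr3c1, Thra and Rara are nuclear receptors, transcription factors that bind DNA and change their activity when a small lipophilic ligand such as vitamin D or estrogen occupies them. In bone they govern matrix synthesis, mineralisation, the release of osteoclast-regulating factors and the coupling of growth to nutrition.

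Relative to the cultures, 4 of the 10 receptors fell in the osteosarcoma lines at a limma adjusted p under 0.05, namely Ghr, Pth1r, Insr and Esr1. Over all genes, 24.6% passed this test, 11.4% in the downward and 13.2% in the upward direction. By limma 0 of the 10 receptors passed upward, although 2, Lepr and Ptger4, had an unadjusted p under 0.05. The remaining receptors, Vdr, Nr3c1, Thra and Rara, did not pass in either direction. The groups did not overlap for 5 receptors, the 4 that fell and Ptger4, against 41.5% of all genes. The median difference over the 10 receptors was 0.05, beside -0.02 over all genes, with receptors on both sides of 0. Without OS_716H the same number, 4, fell, and without any other 1 array 3 fell. With a line left out 1 or 2 receptors passed upward.

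**Figure D1:**
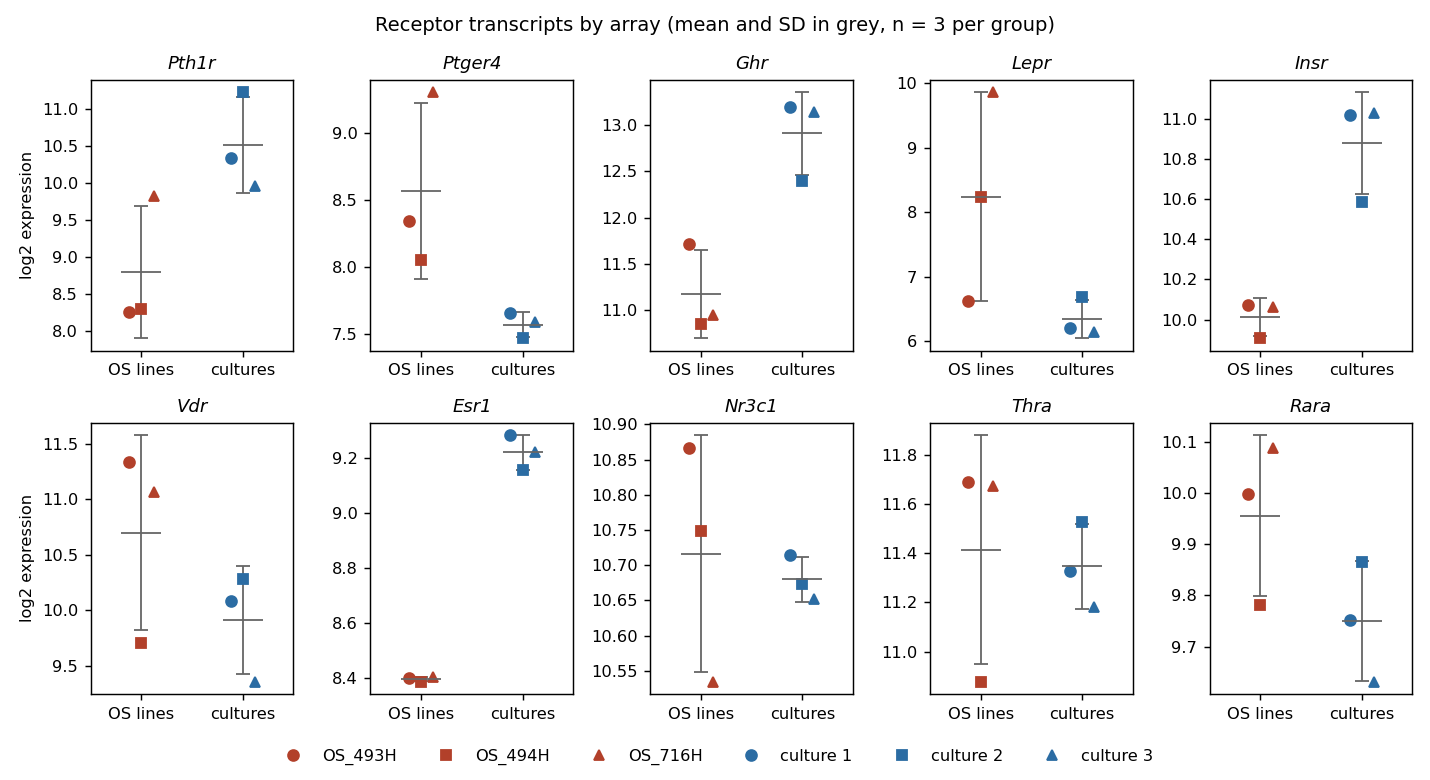
Log2 expression (vertical axis, a separate scale in each panel) of the 10 receptors in the 3 osteosarcoma lines (red) and the 3 cultures (blue), with the mean and SD of each group in grey. The groups are separate for Pth1r, Ghr, Insr, Esr1 and Ptger4, and the lines spread widely for Lepr, between 6.63 and 9.87.

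Pth1r (chromosome 9) encodes the receptor for parathyroid hormone and parathyroid hormone-related protein, the main regulators of bone turnover through the osteoblast. It read 8.26 in OS_493H, 8.30 in OS_494H and 9.83 in OS_716H, against 10.34, 11.23 and 9.97 in cultures 1, 2 and 3. Each line lay below each culture, but the gap between OS_716H and culture 3 was only 0.14. The means were 8.80 ± 0.90 and 10.51 ± 0.65 (SD, n = 3 each), a difference of -1.71 ± 0.50 (SE, limma adjusted p = 0.0497) or 3.28-fold. The adjusted p lay just under the threshold, and it was 0.0736 to 0.14 on leaving out any 1 array except OS_716H. Without OS_716H, the line nearest to the cultures, the difference was -2.23 (adjusted p = 0.0103). Among the lines OS_716H was 1.55 above the mean of the others, and among the cultures culture 2 was 1.08 above the mean of cultures 1 and 3. RefSeq lists 3 start sites for Pth1r, and the array does not tell which were used. The 300-base window around the outermost start is shown because Pth1r is one of the receptors that fell. It runs from 250 bases before the start site to 50 bases from it, the single capital letter marks the start site, and the window is chr9:110747096-110747395 on the minus strand of GRCm38.p6.
Pth1r: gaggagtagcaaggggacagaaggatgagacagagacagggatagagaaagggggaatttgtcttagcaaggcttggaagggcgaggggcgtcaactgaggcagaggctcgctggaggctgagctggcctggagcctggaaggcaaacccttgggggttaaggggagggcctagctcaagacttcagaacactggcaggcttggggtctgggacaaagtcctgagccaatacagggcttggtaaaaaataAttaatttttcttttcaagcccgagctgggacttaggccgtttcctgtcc
Sequence windows were available for 7 of the 10 receptors (15 windows, RefSeq, GRCm38.p6) and were searched on both strands for 4 motifs. These were AGGTCA, the hexamer recognised by many nuclear receptors, the GC box GGGCGG, the STAT motif TTCNNNGAA and the TATA motif TATAAA. They occur in 16.3%, 35.7%, 8.3% and 13.6% of all 32851 windows of this kind. The Pth1r window shown holds none of these letters, whereas the windows of its inner starts hold 1 and 4 GC boxes.

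Genes that act with Pth1r moved both ways. Of 33 listed genes of the receptor's cyclic AMP pathway and its known targets, 30 were measured, of which 5 rose and 5 fell (median difference 0.02, beside -0.02 over all genes). Over all genes, 13.2% rose and 11.4% fell. Adcy7, an adenylyl cyclase, rose 2.51-fold, at 8.80, 9.58 and 9.06 in the lines against 7.77, 7.88 and 7.81 in the cultures (1.33 ± 0.19 SE, limma adjusted p = 0.00399). Adcy9, a further adenylyl cyclase, fell 1.75-fold, at 8.30 ± 0.11 in the lines, against 9.11 ± 0.06 in the cultures (SD, n = 3 each, adjusted p = 0.00146). Adcy7 and Adcy9 thus went in opposite directions, and in neither case did the groups overlap. The other adenylyl cyclases of the list, Adcy3 and Adcy6, are not described here. Rgs2, a regulator of G protein signalling that parathyroid hormone induces in osteoblasts, read 9.14, 7.23 and 8.39 in the lines, against 10.51, 9.81 and 10.72 in the cultures. It fell 4.28-fold (adjusted p = 0.0227), a call lost without culture 1 (0.0854) or culture 3 (0.0869). The list's count of higher genes was 2 without any 1 culture, 3 without OS_493H and 8 without OS_494H, and its count of lower genes was 2 without culture 1.

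Ptger4 (chromosome 15) encodes EP4, the prostaglandin E2 receptor associated with the bone-forming action of that lipid. It read 8.34, 8.05 and 9.31 in OS_493H, OS_494H and OS_716H, against 7.65, 7.46 and 7.58 in cultures 1, 2 and 3. Every line lay above every culture, by at least 0.40. The means were 8.57 ± 0.66 and 7.57 ± 0.10 (SD, n = 3 each). The difference of 1.00 ± 0.31 (SE) missed the threshold (limma adjusted p = 0.0571), although its 95% interval, which is not adjusted for the number of genes, was 0.27 to 1.73. The spread among the lines was 6.84 times that among the cultures, with OS_716H 1.11 above the mean of the other lines. The test was passed without OS_716H at a smaller difference of 0.63 (adjusted p = 0.0154) and without OS_494H at 1.26 (adjusted p = 0.0191). It was also passed after median centring, with array weights and among brighter genes only. It was missed without OS_493H (limma adjusted p = 0.0883) or without any 1 culture (0.137 to 0.149). The Ptger4 window is shown as the counterpart of Pth1r, since this was the only receptor above all cultures in every line. Capitals mark GC boxes, here as CCGCCC on the other strand, and the single capital is the start site (chr15:5244138-5244437, minus strand, GRCm38.p6).
Ptger4: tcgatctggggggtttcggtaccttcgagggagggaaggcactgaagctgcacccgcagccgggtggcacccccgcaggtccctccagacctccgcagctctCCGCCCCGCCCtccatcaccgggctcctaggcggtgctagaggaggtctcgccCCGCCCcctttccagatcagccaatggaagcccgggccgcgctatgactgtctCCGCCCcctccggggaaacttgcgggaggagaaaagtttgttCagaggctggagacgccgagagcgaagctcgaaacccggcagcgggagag
It holds 4 GC boxes, of which a pair overlaps by 1 base, and none of the other motifs. Its G and C content was 67.0%, beside a median of 52.7% over all windows.

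Of 17 measured genes for the synthesis, transport, breakdown and reception of prostaglandins, 2 rose and 1 fell (median difference 0.05), beside 24.6% of all genes called in either direction. Ptgis, the prostacyclin synthase, fell 3.42-fold, at 10.30, 9.99 and 9.56 in the lines, against 11.75, 11.96 and 11.45 in the cultures (-1.77 ± 0.21 SE, limma adjusted p = 0.00225). Slco2a1, the transporter that takes prostaglandins into cells, rose 2.27-fold, with 11.18 ± 0.27 in the lines, against 10.00 ± 0.25 in the cultures (SD, n = 3 each, adjusted p = 0.00441). Cbr1, a carbonyl reductase that can act on prostaglandin E2, rose by 0.34 (adjusted p = 0.0358), a call that only the removal of OS_716H left in place (0.0615 to 0.111). The list's count of higher genes was 1 without OS_493H, OS_494H, culture 1 or culture 3, and its count of lower genes was 2 without OS_493H, OS_494H or culture 2.

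Ghr (chromosome 15) encodes the growth hormone receptor, which signals through JAK2 and STAT5 and drives the production of insulin-like growth factor 1. It read 11.72 in OS_493H, 10.85 in OS_494H and 10.95 in OS_716H, against 13.20, 12.40 and 13.14 in cultures 1, 2 and 3. The highest line lay 0.68 below the lowest culture. With means of 11.17 ± 0.48 in the lines, against 12.91 ± 0.45 in the cultures (SD, n = 3 each), Ghr fell 3.34-fold (-1.74 ± 0.30 SE, limma adjusted p = 0.0076). The call held on leaving out any 1 array, with differences of -2.01 to -1.58 and adjusted p up to 0.0375. Ghr had the largest fall among the 10 receptors in the fit to all arrays. The window around its outermost start is shown because its call was among those that no left-out array removed. Capitals mark GC boxes and the start site (chr15:3583303-3583602, minus strand, GRCm38.p6).
Ghr: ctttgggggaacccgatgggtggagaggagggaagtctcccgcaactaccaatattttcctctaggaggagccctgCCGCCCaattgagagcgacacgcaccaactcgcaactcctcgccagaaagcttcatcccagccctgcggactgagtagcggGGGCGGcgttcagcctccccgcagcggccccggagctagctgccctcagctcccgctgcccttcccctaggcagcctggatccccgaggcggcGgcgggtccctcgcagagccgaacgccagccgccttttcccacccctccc
It holds 2 GC boxes and none of the other motifs, and its G and C content was 67.0%, the same value as in the Ptger4 window. A link between window sequence and receptor values was not tested. RefSeq lists 1 further start for Ghr, with 1 TATA motif in its window.

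Lepr (chromosome 4) encodes the leptin receptor, through which the fat-derived hormone leptin acts; in mouse bone marrow it marks stromal cells that can form both fat and bone. It read 6.63 in OS_493H, 8.23 in OS_494H and 9.87 in OS_716H, against 6.20, 6.68 and 6.14 in cultures 1, 2 and 3. OS_494H and OS_716H lay above all cultures, but OS_493H lay within their range. The spread was 9.44-fold from the lowest to the highest line, the widest of the 10 receptors. The difference of 1.90 ± 0.74 (SE, 95% interval 0.12 to 3.68) did not pass (limma adjusted p = 0.118). Without OS_493H it was 2.71 (adjusted p = 0.0166), and without OS_716H it was 1.09 (adjusted p = 0.16). The array averages probes over the transcript, so the long signalling form and the short forms of the receptor are not told apart.

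Of 20 measured ligands, kinases, STAT factors, feedback inhibitors and targets of these cytokine-type receptors, 2 rose and 2 fell (median difference 0.12), beside 24.6% of all genes called in either direction. Leprot and Leprotl1 encode small membrane proteins that reduce the cell-surface level of the leptin and growth hormone receptors. Leprot read 9.68, 9.71 and 9.72 in the lines, against 8.76, 8.95 and 8.81 in the cultures, a rise of 1.82-fold (limma adjusted p = 9.93e-04). Leprotl1 read 11.27, 11.23 and 11.19 in the lines, against 12.20, 11.97 and 12.37 in the cultures, a fall of 1.93-fold (adjusted p = 0.00201). This pair went in opposite directions with little spread among the lines. Cish, a feedback inhibitor induced by STAT5, rose 1.59-fold (7.75 ± 0.24 and 7.08 ± 0.09, SD, n = 3 each, adjusted p = 0.0115). Without OS_494H 6 genes of the list rose, and 1 fell without OS_493H, OS_716H, culture 1 or culture 2.

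Insr (chromosome 8) encodes the insulin receptor, which in osteoblasts links glucose use to matrix formation. It read 10.07, 9.91 and 10.06 in OS_493H, OS_494H and OS_716H, against 11.02, 10.59 and 11.03 in cultures 1, 2 and 3. All lines lay below all cultures, and the lines differed among themselves by only 0.17. The fall was 1.82-fold (10.01 ± 0.09 in the lines, 10.88 ± 0.25 in the cultures, SD, n = 3 each, difference -0.86 ± 0.14 SE, limma adjusted p = 0.00558). On leaving out 1 array the difference was -1.01 to -0.79 and the adjusted p at most 0.0299. The second Insr probe set gave 9.42, 9.18 and 9.35 in the lines, against 10.25, 10.02 and 10.31 in the cultures, a difference of -0.88. Both probe sets thus placed culture 2 lowest among the cultures and OS_494H lowest among the lines.

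Of 23 measured genes of the insulin pathway, 4 rose and 4 fell (median difference -0.13), beside 24.6% of all genes called in either direction. Pik3cb, a catalytic subunit of phosphoinositide 3-kinase, rose 3.84-fold, at 10.11, 10.52 and 10.39 in the lines, against 8.41, 8.21 and 8.58 in the cultures (1.94 ± 0.14 SE, limma adjusted p = 6.10e-04). Slc2a4, the insulin-responsive glucose transporter of fat and muscle, fell 2.11-fold (7.59 ± 0.12 and 8.66 ± 0.41, SD, n = 3 each, adjusted p = 0.0101). Grb10, an adaptor that restrains the insulin receptor, rose 1.73-fold (12.34 ± 0.14 and 11.55 ± 0.19, adjusted p = 0.00565). Without culture 1 or culture 3 the list's count of lower genes was 2.

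Fat cell genes were mostly lower in the lines, as Ghr and Insr were. Of 16 measured adipocyte markers, 13 were lower in the lines, beside 11.4% of all genes. Among them were Fabp4 (9.30 ± 0.78 in the lines, 12.32 ± 0.45 in the cultures), Lpl (11.35 ± 1.08 and 13.55 ± 0.24) and Pparg (10.29 ± 0.43 and 12.11 ± 0.32, SD, n = 3 each). The call of Lpl was lost without culture 1 (limma adjusted p = 0.0792) or culture 3 (0.0776). The log2 of the summed linear level of the 16 markers was 13.50, 12.74 and 13.07 in OS_493H, OS_494H and OS_716H, against 15.63, 14.99 and 15.28 in cultures 1, 2 and 3. The defining fat genes Adipoq and Plin1 averaged 5.93 and 7.27 in the lines, against 11.88 and 10.51 in the cultures. Across the cultures 11 of the 16 markers were lowest in culture 2, as Ghr, Insr, Esr1 and Ptger4 were, although Ptger4 was higher in every line than in any culture. Among the lines both the marker sum and Ghr were highest in OS_493H. Adipoq was instead highest in OS_494H, at 5.88, 6.13 and 5.79 in OS_493H, OS_494H and OS_716H. Plin1 was highest in OS_716H, at 7.20, 7.18 and 7.43 in the same order. The share of all genes lowest in culture 2 was not counted. The part of fat-like cells in the values of Ghr and Insr was not tested. In these bulk samples fewer cells of a type and less RNA per cell cannot be told apart.

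Other receptors differed across the cultures in the opposite way. Pth1r, Vdr, Lepr, Thra and Rara were highest in culture 2, as were 9 of 14 measured markers of mature osteoblasts, 7 of 8 osteoblast transcription factors and 17 of 17 markers of dividing cells. Culture 2 stood apart from the other cultures over all genes, and the share of all genes highest in it was not counted. Of the mature osteoblast markers 2 rose and 5 fell in the lines, and of the transcription factors 1 rose and 3 fell. Over all genes, 13.2% rose and 11.4% fell. The log2 sum of mature osteoblast markers was 15.68, 15.47 and 15.93 in the lines, against 15.94, 16.32 and 15.82 in the cultures. Among the lines it was highest in OS_716H, as Pth1r was. That of the 8 osteoblast transcription factors was 11.86, 12.50 and 12.21 in the lines, against 12.16, 12.57 and 12.20 in the cultures. Among the lines it was highest in OS_494H, unlike Pth1r. All 17 dividing cell markers rose in the lines, with log2 sums of 15.62, 16.00 and 15.57, against 13.60, 14.28 and 13.56 in the cultures. The part of differentiation or growth state in the receptor values was not tested. The log2 sum of 8 endothelial markers was 9.61 to 10.24 in the lines and 9.54 to 9.60 in the cultures, and that of 8 muscle markers 10.01 to 10.09 and 9.95 to 10.08. The leukocyte gene Ptprc averaged 6.17 in the lines, against 6.27 in the cultures, below the array medians. The log2 sum of 13 monocyte and osteoclast markers was 11.01 to 11.57 in the lines and 11.85 to 12.36 in the cultures, with cathepsin K (Ctsk), which stromal cells can express, at 9.97 and 11.61. Of these 13 markers 1 rose and 1 fell, with a median difference of -0.007. The log2 sum of 8 cartilage markers was 11.08 to 11.85 in the lines and 11.42 to 12.61 in the cultures, with type X collagen (Col10a1) averaging 7.44 in the lines, against 10.84 in the cultures. Of these 8 markers 0 rose and 1 fell, with a median difference of 0.01.

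**Figure D2:**
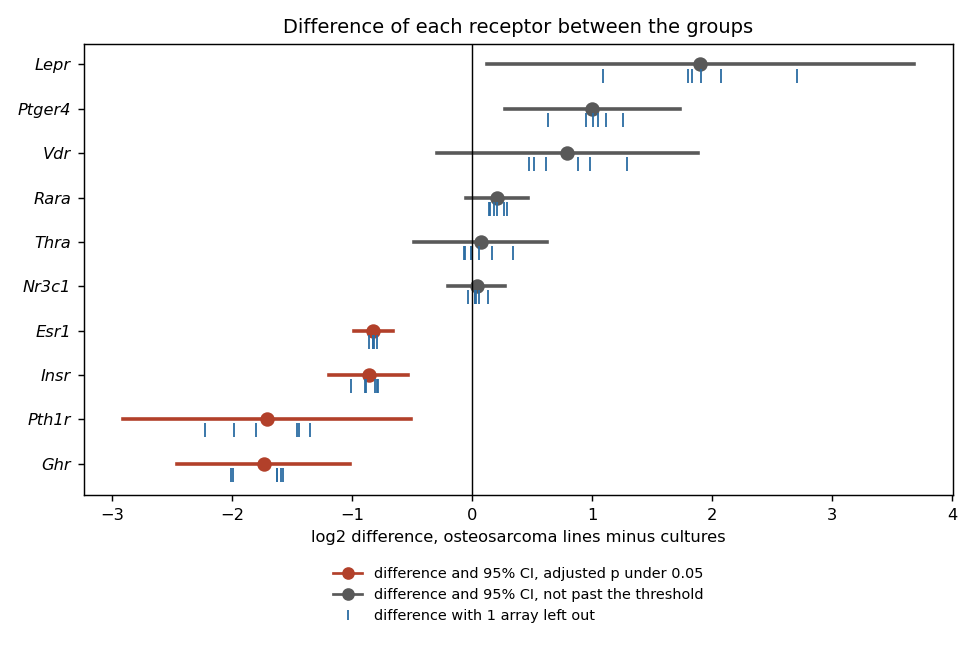
Log2 difference (osteosarcoma lines minus cultures, horizontal axis) of each receptor with its 95% confidence interval from limma, in red where the adjusted p was under 0.05, and below each the 6 differences with 1 array left out (blue ticks). Ghr, Pth1r, Insr and Esr1 lie below 0 in every case, and Thra and Nr3c1 lie on both sides of 0 with different arrays left out.

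Esr1 (chromosome 10) encodes estrogen receptor alpha, which in bone protects against loss of mass. It read 8.40, 8.39 and 8.40 in OS_493H, OS_494H and OS_716H, against 9.28, 9.16 and 9.22 in cultures 1, 2 and 3. The lines were nearly identical, with an SD of 0.0084, and lay 0.76 below the lowest culture. Esr1 fell 1.77-fold (difference -0.83 ± 0.07 SE, limma adjusted p = 8.15e-04), the smallest adjusted p of the 10 receptors. The difference was -0.86 to -0.80 on leaving out any 1 array, with adjusted p at most 0.0076. The window around the outer of its 2 listed starts is shown beside that of the other called receptors, with the start site as the single capital (chr10:4611739-4612038, plus strand, GRCm38.p6).
Esr1: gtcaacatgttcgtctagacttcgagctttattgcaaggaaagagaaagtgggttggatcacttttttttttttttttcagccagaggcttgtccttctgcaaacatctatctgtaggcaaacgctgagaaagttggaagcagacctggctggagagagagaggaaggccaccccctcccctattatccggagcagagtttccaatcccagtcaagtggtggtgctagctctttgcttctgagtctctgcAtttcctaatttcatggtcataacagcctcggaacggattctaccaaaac
It holds none of the 4 motifs and has 46.3% G and C, the lowest of the 15 windows. The window of the inner start holds 1 STAT motif.

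Of 17 measured estrogen pathway genes, 5 fell and 1 rose, beside 11.4% and 13.2% of all genes. The median difference was 0.06. Gper1, a membrane receptor reported to respond to estrogen, read 7.51, 7.79 and 7.74 in the lines, against 9.0, 9.75 and 8.47 in the cultures. It fell 2.63-fold (limma adjusted p = 0.0179), a call lost without OS_493H (0.0591) or culture 1 (0.0619). Ncoa1, a coactivator shared by many nuclear receptors, fell 2.36-fold, at 9.30, 8.48 and 8.88 in the lines, against 10.09, 10.10 and 10.17 in the cultures (adjusted p = 0.00549). Hsd17b7, an enzyme that can form estradiol and that also acts in cholesterol synthesis, rose 3.77-fold (11.51 ± 0.22 and 9.59 ± 0.57, SD, n = 3 each, adjusted p = 0.00417). Without OS_493H 2 genes rose and 1 fell, and without culture 1 only 1 fell.

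Vdr (chromosome 15) encodes the vitamin D receptor, which pairs with retinoid X receptors. It read 11.34 in OS_493H, 9.70 in OS_494H and 11.06 in OS_716H, against 10.09, 10.28 and 9.36 in cultures 1, 2 and 3. OS_493H and OS_716H lay above all cultures, and OS_494H lay among them. The difference of 0.79 ± 0.46 (SE, 95% interval -0.30 to 1.88) did not pass (limma adjusted p = 0.274). Without OS_494H, which was 1.5 below the mean of the other lines, it was 1.29 (adjusted p = 0.0191). With any other 1 array left out the limma adjusted p was 0.281 to 0.571. Of 14 measured vitamin D pathway genes, 1 rose and 5 fell (median difference -0.25), beside 13.2% and 11.4% of all genes. The genes that make the circulating form of vitamin D diverged: Cyp2r1, the main 25-hydroxylase, rose 3.05-fold (6.25, 6.72 and 7.17 in the lines, 5.02, 5.21 and 5.08 in the cultures, adjusted p = 0.00337). Cyp27a1, a sterol hydroxylase that can also do this step, fell 2.81-fold (6.95 ± 0.12 and 8.43 ± 0.12, SD, n = 3 each, adjusted p = 5.05e-04). The higher Cyp2r1 values remained below the array medians of 7.45 to 7.58.

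Nr3c1 (chromosome 18) encodes the glucocorticoid receptor. It read 10.87, 10.75 and 10.53 in the lines, against 10.71, 10.67 and 10.65 in the cultures, so that the cultures lay inside the range of the lines. The difference was 0.04 ± 0.10 (SE, limma adjusted p = 0.838) with a 95% interval of -0.20 to 0.27. Its sign turned after quantile normalisation (-0.01) and without OS_493H (-0.04). Of 21 measured genes that handle glucocorticoids or respond to them, 3 rose and 6 fell, beside 13.2% and 11.4% of all genes. The median difference was -0.07. Fkbp5, an immunophilin of the receptor complex and a much-used target gene, rose 2.82-fold, at 9.29, 10.03 and 9.07 in the lines, against 7.87, 8.22 and 7.81 in the cultures (adjusted p = 0.00727). Klf9, a further target gene that also responds to thyroid hormone, fell 2.81-fold, at 10.11 ± 0.46 and 11.60 ± 0.41 (SD, n = 3 each, adjusted p = 0.0109). These target genes thus moved in opposite directions. Hsd11b1, the enzyme that regenerates active glucocorticoid inside cells, fell 2.63-fold (6.92 ± 0.50 and 8.31 ± 0.60, adjusted p = 0.0316), a call lost without OS_493H (0.0912), OS_494H (0.0665), culture 1 (0.115) or culture 3 (0.112).

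Thra (chromosome 11) encodes thyroid hormone receptor alpha, the main thyroid hormone receptor of the skeleton. It read 11.69, 10.88 and 11.67 in OS_493H, OS_494H and OS_716H, against 11.33, 11.53 and 11.18 in cultures 1, 2 and 3. The cultures lay inside the range of the lines. The difference of 0.07 ± 0.23 (SE, 95% interval -0.49 to 0.62) did not pass (limma adjusted p = 0.872), and its sign turned without OS_493H (-0.07), OS_716H (-0.06) or culture 3 (-0.01). The array does not separate the hormone-binding form from the form that does not bind hormone. In the RefSeq annotation the end of Thra overlaps that of Nr1d1 on chromosome 11, and Nr1d1 averaged 10.21 in the lines, against 10.56 in the cultures (adjusted p = 0.304).

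Of 16 measured thyroid hormone genes, 4 rose and 4 fell (median difference 0.02), beside 13.2% and 11.4% of all genes. Dio3, the deiodinase that inactivates thyroid hormone, rose 6.56-fold, at 9.92, 8.12 and 9.51 in the lines, against 6.63, 6.37 and 6.41 in the cultures (2.71 ± 0.43 SE, limma adjusted p = 0.00581). Tshr, the receptor for thyroid-stimulating hormone, fell 9.72-fold, at 5.72, 5.33 and 5.70 in the lines, against 9.37, 8.46 and 8.76 in the cultures (-3.28 ± 0.24 SE, adjusted p = 6.14e-04). In neither case did the groups overlap, while those of Thra did. Without culture 1 or culture 2 the count of genes that rose was 2.

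Rara (chromosome 11) encodes retinoic acid receptor alpha. It read 10.00, 9.78 and 10.09 in the lines, against 9.75, 9.87 and 9.63 in the cultures, and OS_494H overlapped with the cultures. The difference of 0.21 ± 0.11 (SE, 95% interval -0.05 to 0.46) did not pass (limma adjusted p = 0.232). Of 23 measured retinoid genes, 6 rose and 2 fell (median difference 0.24), beside 13.2% and 11.4% of all genes. Without any 1 culture 3 rose. Crabp1, a cytosolic binding protein for retinoic acid, rose 5.14-fold, at 11.23, 12.63 and 12.29 in the lines, against 9.44, 9.90 and 9.72 in the cultures (adjusted p = 0.00444). Fabp5, a fatty acid binding protein that can carry retinoic acid to another nuclear receptor, rose 3.79-fold (11.54 ± 0.38 and 9.62 ± 0.35, SD, n = 3 each, adjusted p = 0.00245). Rarres2, a retinoid-induced gene encoding the adipokine chemerin, fell 7.01-fold (7.55 ± 0.27 and 10.36 ± 0.37, adjusted p = 6.82e-04).

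**Figure D3:**
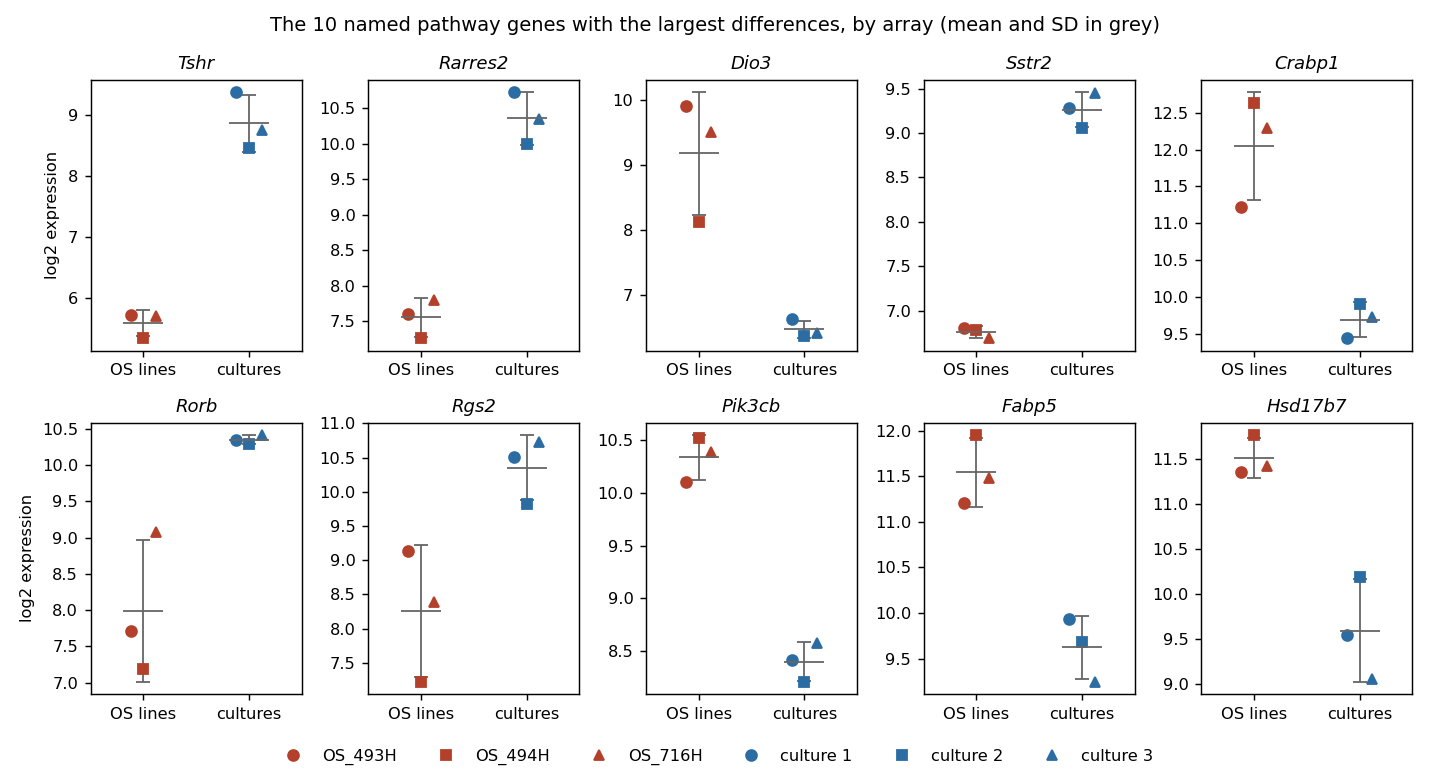
Log2 expression (vertical axis, a separate scale in each panel) in the osteosarcoma lines (red) and the cultures (blue) of the 10 named pathway genes with the largest differences, with the mean and SD of each group in grey. Tshr, Rarres2, Sstr2, Rorb and Rgs2 are lower in every line than in any culture, and Dio3, Crabp1, Pik3cb, Fabp5 and Hsd17b7 are higher.

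Nuclear receptors outside the 10 genes were mostly lower where they changed. Of 40 measured, 14 fell and 1 (Thrb) rose, beside 11.4% and 13.2% of all genes. The median difference was -0.10. The call of Thrb was lost without culture 1 or culture 2. Rorb, an orphan receptor related to the retinoid receptors, fell 5.13-fold, at 7.71, 7.18 and 9.08 in the lines, against 10.35, 10.29 and 10.41 in the cultures (limma adjusted p = 0.0105). Nr4a1, an immediate early orphan receptor, fell 3.64-fold, at 8.64 ± 0.10 and 10.50 ± 0.21 (SD, n = 3 each, adjusted p = 5.05e-04). Pparg, the master regulator of fat cells, fell 3.53-fold (adjusted p = 0.0034) and is also among the adipocyte markers above. The other 11 fell by 0.34 (Ppard) to 1.19 (Nr1h3) and included the mineralocorticoid receptor Nr3c2 and the estrogen-related receptor Esrra.

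Other hormone receptors at the cell surface showed 2 rises and 6 falls among 35 measured (median difference -0.05). Over all genes, 13.2% rose and 11.4% fell. Sstr2, a somatostatin receptor, fell 5.67-fold, at 6.81, 6.78 and 6.69 in the lines, against 9.28, 9.05 and 9.45 in the cultures (limma adjusted p = 1.71e-04). Ramp1, which pairs with the calcitonin-type receptors, fell 2.72-fold (6.95 ± 0.21 and 8.39 ± 0.52, SD, n = 3 each, adjusted p = 0.00901), and Tshr was given above. Without any 1 array except OS_494H the list held at most 1 rise. Of 19 measured coregulators of nuclear receptors, 3 rose and 6 fell (median difference -0.19), beside the same 13.2% and 11.4% of all genes. Besides Ncoa1, Sirt1, a deacetylase, fell 2.08-fold (adjusted p = 0.00265). Ppargc1a, a coactivator of mitochondrial genes, fell 2.85-fold (adjusted p = 0.0304), a call lost without OS_493H (0.0888), OS_494H (0.0568), culture 1 (0.106) or culture 3 (0.0983). Each gene counted once, the pathway lists held 237 measured genes, of which 31 rose and 50 fell, beside 13.2% and 11.4% of all genes.

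**Figure D4:**
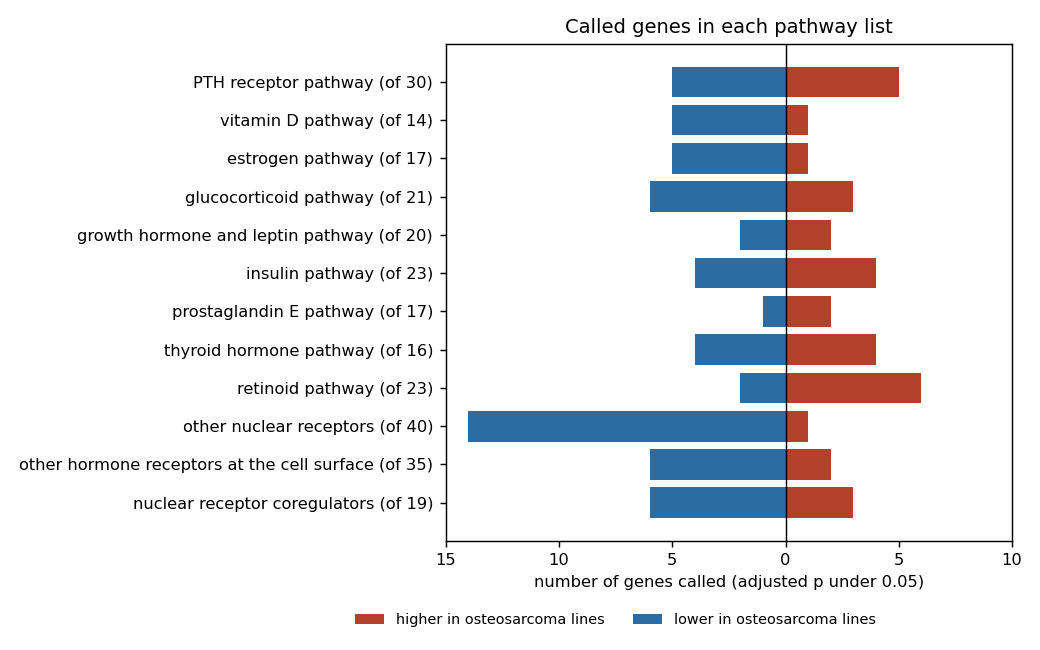
Number of genes called higher (red, right) or lower (blue, left) in the osteosarcoma lines in each of the 12 pathway lists, with the number measured in brackets (horizontal axis, genes at a limma adjusted p under 0.05). The list of other nuclear receptors has 14 genes lower and 1 higher, and the retinoid list has 6 higher and 2 lower.

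The lines differed among themselves more than the cultures did for 8 of the 10 receptors, with a median ratio of SDs of 1.59, beside 1.47 over all genes. The exceptions were Esr1 and Insr. OS_494H was the lowest line for 7 receptors and OS_716H the highest for 5. For the 4 receptors that fell, the genes with the most similar values over the 6 arrays were found by the root mean square difference after each gene was centred on its own mean. For Pth1r these were the microRNA gene Mir181b-1 (0.19 log2 units) and Cbr2 (0.26), and for Ghr they were Bst2 (0.09) and Acot2 (0.16). For Esr1 they were Zfp790 and Atp2b1 (0.04 and 0.05), and for Insr Lmbrd1 and Gpr146 (0.03 and 0.04). Mir181b-1 read 7.04, 7.03 and 8.16 in the lines, against 8.74, 9.65 and 8.73 in the cultures, with OS_716H and culture 2 highest in their groups as for Pth1r. Bst2 read 9.08, 8.17 and 8.15 in the lines, against 10.64, 9.85 and 10.60 in the cultures, with OS_493H the highest line and culture 2 the lowest culture as for Ghr.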

How the data were processed

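Total RNA from 6 samples was hybridised to 1 Affymetrix Mouse Gene ST array each. The authors deposited log2 expression values for 35556 probe sets; the submitters' processing notes name RMA and mm9, and a software version is not given in the sources used here. By design RMA equalises probe distributions over arrays. Large differences may be compressed in such values, and no detection call was used. No batch was tested.

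Probe sets with 1 symbol in the platform annotation (21789; 1621 had several and 12146 were not listed) gave 19938 genes, by the brightest probe set for 999 genes. Of these probe sets 21698 were found by gene identifier in RefSeq (GRCm38.p6), and 0 symbols changed. Groups, from the sample titles, were compared with limma 3.58.1 in R 4.3.3 (lmFit, eBayes, two-sided, all 6 arrays), with Benjamini-Hochberg adjustment over all genes and a threshold of 0.05. With 3 arrays per group an exact permutation test cannot go below p = 0.1, so none is given. On simulated data for this comparison over 19938 genes, the fit recovered 72% of genes changed 2-fold and 99% changed 4-fold, with 6 false among 177 calls. The simulation changed far fewer genes than were called in the data, all of them above the median level. It gave both groups the same spread for each gene, so these rates need not hold for the real comparison.

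The receptors and gene lists were chosen with earlier results of these data known. The naming rule took, per pathway list, up to 3 called genes with the largest differences, per marker list the 3 brightest in the cultures, not all of them printed, and the 2 genes most like each called receptor. Thrb, Ppard, Nr1h3, Esrra, Nr3c2, Nr1d1, Adipoq, Plin1, Ptprc, Xist and Eif2s3y were added after their values were seen. Alternatives were other normalisation, filters, variance models, probe set summaries, a stricter threshold and leaving out each array.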

Additional observations from a re-analysis of the deposited data

How the results depend on the processing

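Of 15 alternatives, each left Esr1, Ghr and Insr called lower, and 3 or 4 receptors lower in all. Pth1r kept its direction, but its adjusted p was 0.054 after quantile normalisation (difference -1.71), 0.0535 after median centring (-1.65), 0.0582 with robust moderation (-1.71) and 0.059 over all probe sets (-1.71), and a threshold of 0.01 also removed it (-1.71); leaving out 1 array gave -2.23 to -1.35. Ptger4 passed after median centring (1.07), among brighter genes (1.00) and with array weights (0.89), so that the count of receptors called higher was 1 in each of these. Leaving out 1 array gave differences of 0.63 to 1.26 for Ptger4, 0.47 to 1.29 for Vdr and 1.09 to 2.71 for Lepr, and 0 to 2 receptors called higher. The sign of Nr3c1 turned after quantile normalisation (-0.0064); over left-out arrays its difference ran from -0.038 to 0.13, and that of Thra from -0.070 to 0.34. Over all genes, 2622 were higher and 2274 lower; a threshold of 0.01 gave 1394 and 1072, all probe sets gave 4150 lower, and leaving out 1 array gave 1533 to 2796 higher and 1211 to 2314 lower. Why single arrays moved these calls was not tested. Of 51 called genes that the naming rule selected besides the receptors, 11 lost the call on leaving out some array and 0 reversed under any alternative. No paired analysis was possible because the labels link no osteosarcoma line to any culture. The number of arrays limits the precision, and no detection call was used, so low values such as those of Lepr in the cultures cannot be told from background.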
